A study of Mus musculus with 9 samples.

Results

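The genes described here encode the nuclear part of the mitochondrial respiratory chain and the ATP synthase. They were taken by symbol from the batch-corrected count table (names beginning Nduf, Uqcr, Cox4 to Cox8 or Atp5, with Sdha to Sdhd, Cyc1 and Cycs, and without pseudogene symbols), which gave 94 of 24391 genes. By textbook assignment, 36 belong to complex I, 4 to complex II, 9 to complex III, 1 is cytochrome c, 20 belong to complex IV, 16 to complex V and 8 are assembly factors. Expression was measured by RNA sequencing of total RNA from mouse CD8+ cells kept in culture medium with interleukin 2 at 100 U/mL and activated for 72 h. In 5 libraries the cells were not treated (NT), and in 4 an inhibitor of the histone demethylase LSD1 was present (LSD1i). The labels name neither the strain, the age of the animals, the inhibitor nor its dose. They leave unsaid whether each library had its own animal or culture, and p-values therefore reflect the spread among these libraries, which may be technical. The comparison asks whether transcripts of these complexes differed between LSD1i and NT cells.

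The respiratory chain sits in the inner mitochondrial membrane. Complexes I and II pass electrons from NADH and succinate to ubiquinone, complex III passes them to cytochrome c, and complex IV passes them to oxygen. Complexes I, III and IV pump protons, and the return of protons through complex V drives ATP synthesis. Activated CD8+ T cells are known for combining raised glycolysis with mitochondrial respiration. The subunits studied here are encoded in the nucleus, and the subunits encoded by mitochondrial DNA were not analysed here.

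Promoters are shown first because members of this family are known to share binding sites of nuclear respiratory factor 1 (NRF1) near their start sites. The RefSeq promoter table (GRCm38.p6, 250 bases before to 50 after each gene start) matched 74 of the 94 members. Each motif was searched on both strands, with matches of different motifs counted separately where they overlapped. The NRF1 palindrome, spelled by the capitals in the lines that follow, was in 9.46% of the members' promoters, against 2.53% of those of all tested genes and 1.07% of all genes of the table. The next lines give 60-base stretches, 5′ to 3′ on the gene's strand, of the 5 among 7 such members whose match and flanks lie before the start, and the capitals mark the motif. They were chosen after the matches were seen.
Atp5g2: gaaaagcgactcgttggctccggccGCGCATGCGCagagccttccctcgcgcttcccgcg
Atp5k: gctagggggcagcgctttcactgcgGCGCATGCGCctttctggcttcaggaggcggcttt
Cox6a1: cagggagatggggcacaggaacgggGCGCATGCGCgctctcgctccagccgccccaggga
Ndufa11: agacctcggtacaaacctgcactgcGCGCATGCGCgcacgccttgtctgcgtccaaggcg
Ndufaf4: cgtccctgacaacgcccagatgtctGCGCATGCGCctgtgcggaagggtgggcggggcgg

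These stretches lie at chr15:102671055-102671114 (Atp5g2, minus strand), chr5:108434415-108434474 (Atp5k, minus), chr5:115349086-115349145 (Cox6a1, minus), chr17:56717677-56717736 (Ndufa11, plus) and chr4:24897945-24898004 (Ndufaf4, plus). The motif began 42 bases before the annotated start in Atp5g2, 50 in Atp5k, 60 in Ndufa11, 113 in Ndufaf4 and 162 in Cox6a1. Of the other motifs searched, YY1 (AAGATGGC) was in 12.2% of the members' promoters and 5.62% of those of tested genes, and the ERR motif (TCAAGGTCA) in 2.70% and 0.353%. The ETS core (CCGGAAG) was in 23.0% and 21.3%, TATAAA in 9.46% and 8.09%, and the SP1 motif (GGGCGG) in 44.6% and 70.0%. The 150 bases before the start of Cox7a1 (chr7:30184021-30184170, plus strand), the member with the largest log2 fold change below, held none of the 6 motifs and are given for contrast.
Cox7a1: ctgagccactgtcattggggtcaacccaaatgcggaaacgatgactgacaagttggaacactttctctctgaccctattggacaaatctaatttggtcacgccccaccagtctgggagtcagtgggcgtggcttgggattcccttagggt

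The 7 tested members with the NRF1 motif had a median log2 fold change, LSD1i over NT, of −0.01, and the 64 without it 0.03. A match describes letters and shows no binding.

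Batch-corrected libraries held 15003752 to 27215488 counts. The raw and the batch-corrected table disagree on 4 names, since replicates 1 and 2 of both groups in one table carry the opposite group in the other, whereas the other 5 are named alike. Names below are those of the batch-corrected table, and the members named for their values are also given for the 5 libraries named alike. Replicates 1 and 2 (4 libraries, "first batch") and replicates 3 to 5 (5 libraries, "second batch") are batches inferred from the data and not stated in the labels. In NT 1 (LSD1i 1 in the raw table), Rn45s, the 45S ribosomal precursor, took 13.3% of raw reads, against 1.66% to 2.87% in the other 8. The summed level of the 8 CD8 T cell markers was 7939 to 10845 CPM (counts scaled to the TMM-adjusted size of each library) in NT and 7315 to 9074 in LSD1i. Of the 8, Cd8a, a chain of the CD8 co-receptor, was called, where 3.31% of all tested genes were called. Its log2 fold change was 0.38 ± 0.08 (SE), with an adjusted p of 0.0266 (edgeR), and of 0.126 in raw counts with the batch term. The other 7 were not called and differed in direction. Their log2 fold changes were 0.27 (Cd8b1), 0.26 (Cd247), 0.14 (Cd3d), 0.10 (Cd3g), 0.01 (Lck), −0.27 (Gzmb) and −0.28 (Cd3e). The markers of CD4 T, B, NK, myeloid and erythroid cells summed to at most 0.567 CPM per list in any library (at 0 in every library were the NK marker Ncr1 and the erythroid markers Hba-a1 and Hbb-b1). The part of these markers in the results was not tested.

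The low-count filter kept 88 of the 94 members. Ndufs5, a complex I subunit, and the tissue isoforms Cox7b2, Cox8b and Cox8c were listed at 0 in every library. Whether the 0 of Ndufs5 reflects its expression or the way reads were counted was not tested. Cox4i2, the lung isoform of subunit 4, had 4 to 10 corrected counts per library, and Ndufa4l2, a paralog of Ndufa4, had 0 to 4.

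Together the members made up 1.31% of the TMM-adjusted library size in NT and 1.34% in LSD1i, as group means. Their summed level was 11719, 13790, 13625, 12235 and 14326 CPM in NT 1 to 5, and 13149, 14502, 11671 and 14217 CPM in LSD1i 1 to 4. The means were 13139 ± 1107 CPM (SD, n = 5) and 13385 ± 1282 CPM (SD, n = 4), a log2 ratio of 0.03. The groups overlapped in the sum of every complex: NT 1, NT 4 and LSD1i 3 were low, and NT 5 and LSD1i 2 were high. Complex V had the highest sum, at 5312 ± 398 CPM (SD, n = 5) in NT and 5369 ± 550 CPM (SD, n = 4) in LSD1i. Complex I followed with 3188 ± 296 CPM (SD, n = 5) and 3319 ± 260 CPM (SD, n = 4). Complex IV summed to 2282 ± 215 CPM (SD, n = 5) and 2349 ± 250 CPM (SD, n = 4). Complex III summed to 1492 ± 134 CPM (SD, n = 5) and 1472 ± 159 CPM (SD, n = 4), and complex II to 612 ± 55.7 CPM (SD, n = 5) and 634 ± 42.4 CPM (SD, n = 4). Over the 5 libraries named alike (3 NT and 2 LSD1i), the log2 ratio of summed CPM was −0.05 for all members, −0.01 for complex I, 0.02 for complex II, −0.12 for complex III, −0.06 for complex IV and −0.05 for complex V, with groups that overlapped in each. The assembly factors summed to 180 CPM in NT and 154 CPM in LSD1i there, a log2 ratio of −0.22. Those groups of 3 and 2 libraries did not overlap, but the groups overlapped over all 9 libraries. How often so few libraries fail to overlap was not counted over all genes. In bulk RNA, fewer cells of a type and less RNA per cell cannot be told apart.

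**Figure D1:**
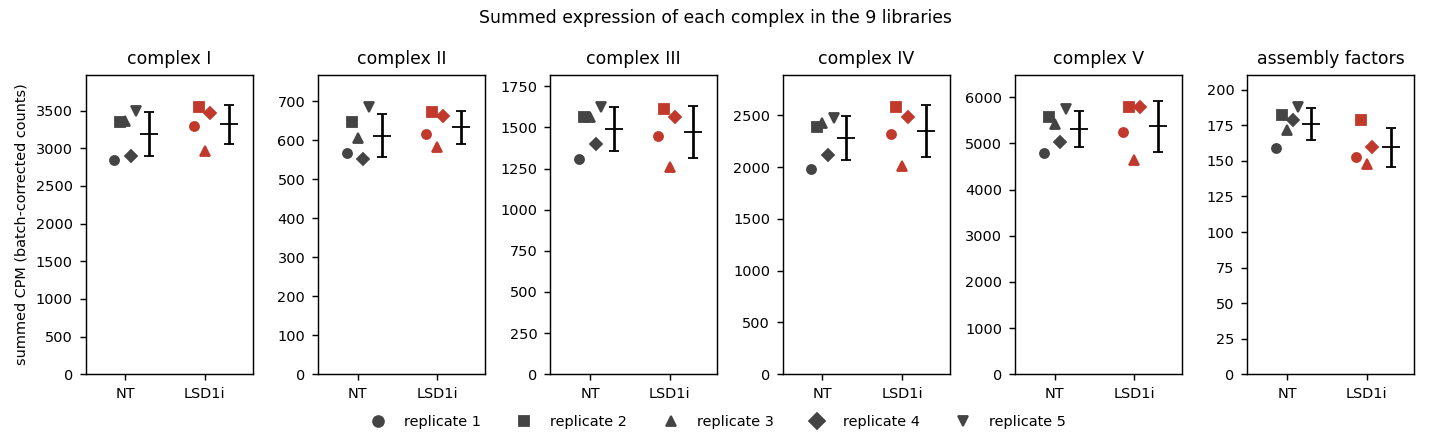
Summed CPM of 5 complexes and of the assembly factors (y axes, batch-corrected counts, each from 0) in NT and LSD1i libraries (symbols give the replicate number, bars the mean and SD). The groups overlap in every panel, and for complex V the NT libraries lie between 4787 and 5752 CPM.

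Per length, the highest member was Atp5b, the catalytic beta subunit of the ATP synthase, at 1087 CPM per kilobase of transcript in NT and 1067 in LSD1i. Cox4i1, the common isoform of complex IV subunit 4, reached 586 and 596 CPM per kilobase, Cox8a 488 and 486, and Atp5a1, the alpha subunit of the ATP synthase, 481 and 493. The lowest tested member was Atp5s, the coupling factor B, at 3.35 and 2.63 CPM per kilobase.

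None of the 88 tested members was called at an adjusted p of 0.05 (edgeR quasi-likelihood test, Benjamini-Hochberg over 11981 genes), where 397 genes, 3.31% of those tested, were called (2.15% higher and 1.16% lower). Of the members, 7 had an unadjusted p under 0.05 (6 higher and 1 lower in LSD1i), against 14.6% of all tested genes. The median log2 fold change of the members was 0.02, with 48 above 0 and 40 below. That of all tested genes was −0.02, with 45.6% above 0. The 95% confidence interval lay within a log2 fold change of ±0.5, a 1.41-fold change, for 77 of the 88 members and for 61.5% of all tested genes. It lay within ±1 for 87 members, the exception being Cox6a2. The 11 wider than ±0.5 were Ndufa1, Ndufab1 and Ndufa12 (complex I), Cox7a1, Cox6b2, Cox6a2 and Ndufa4 (complex IV), Atp5s (complex V), and the assembly factors Ndufaf2, Ndufaf4 and Ndufaf6.

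Raw counts with the batch as a term called 0 members, where 1.85% of 11916 genes were called (1.39% higher and 0.453% lower), and the member median was 0.05. Without NT 1, the library rich in Rn45s, the median of that fit was −0.04. In the corrected counts, leaving out 1 library moved the member median between −0.021 (without NT 1) and 0.095 (without LSD1i 3). With the group names of the raw table, 0 members and 0 genes (0%) were called and the member median was −0.14, so a direction common to the members depends on which table names the libraries rightly. The 5 libraries named alike, which are the second batch, called 0 members where 0.969% of genes were called, with a median of −0.05. In the authors' deposited table, 90 of the members were among 20052 genes and 0 were marked as changed, where 94 genes were marked up and 44 down.

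**Figure D2:**
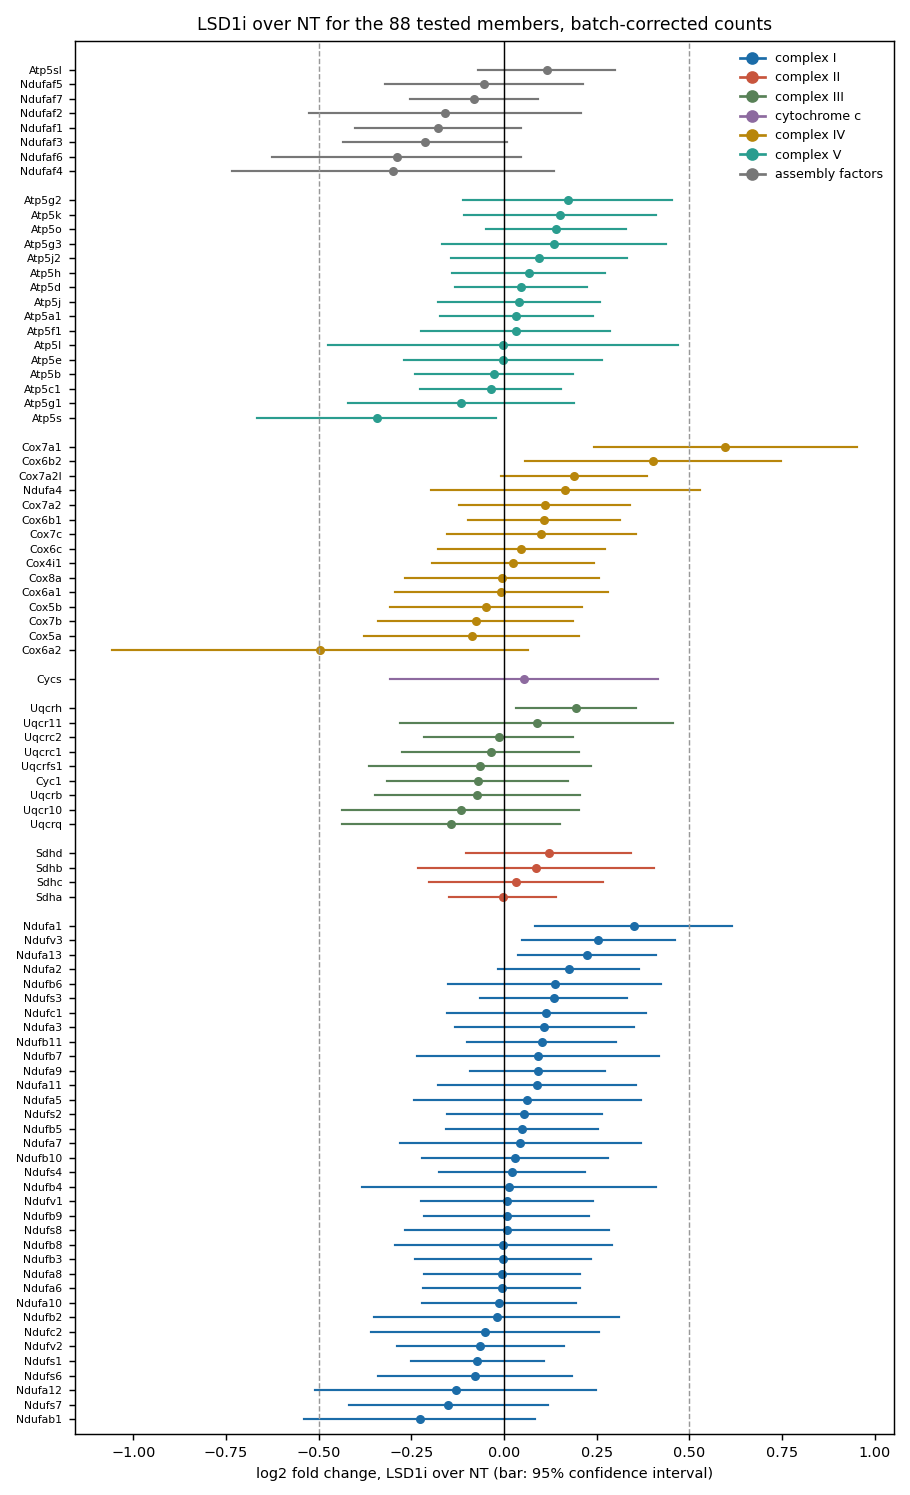
Log2 fold change, LSD1i over NT, of each of the 88 tested members with its 95% confidence interval (x axis), ordered within each complex (colours). Dashed lines mark ±0.5, and the estimates run from −0.50 (Cox6a2) to 0.60 (Cox7a1).

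For complex I, 22 of 35 tested subunits lay above 0 and 13 below, with a median log2 fold change of 0.02. The 7 core subunits, which hold the flavin and iron-sulfur clusters or line the path of electrons, ranged from −0.15 (Ndufs7) to 0.13 (Ndufs3). The smallest p-values belonged to accessory subunits. Ndufa1, a small membrane-arm subunit, was at 43.9, 55.8, 54.0, 47.7 and 59.2 CPM in NT 1 to 5 and at 65.7, 73.6, 52.8 and 73.5 CPM in LSD1i 1 to 4. Only LSD1i 3 fell within the NT range. Its log2 fold change was 0.35 ± 0.12 (SE), with an adjusted p of 0.181 (edgeR).

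Ndufv3, an accessory subunit of the flavoprotein part, was at 203, 201, 200, 160 and 182 CPM in NT and 225, 200, 238 and 239 CPM in LSD1i. Here LSD1i 2 overlapped NT. The log2 fold change was 0.25 ± 0.09 (SE), with an adjusted p of 0.218 (edgeR). Ndufa13, also known as GRIM-19 and the most abundant complex I member in CPM, was at 215, 230, 249, 201 and 200 CPM in NT and 261, 247, 244 and 272 CPM in LSD1i. NT 3 lay within the LSD1i range, and the log2 fold change was 0.22 ± 0.09 (SE), with an adjusted p of 0.232 (edgeR).

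In complex II, all 4 intervals lay within ±0.5 and the median log2 fold change was 0.06. Sdha, the flavoprotein that oxidises succinate, was at 255, 246, 238, 232 and 241 CPM in NT and 236, 237, 246 and 248 CPM in LSD1i. The groups covered nearly the same range, the log2 fold change was −0.00 ± 0.07 (SE), and its 95% interval ran from −0.15 to 0.14. The iron-sulfur subunit Sdhb was at 0.09 ± 0.14 (log2, SE), and the membrane anchors Sdhc and Sdhd were at 0.03 ± 0.11 and 0.12 ± 0.10.

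In complex III, 2 of 9 subunits lay above 0 and 7 below, with a median of −0.07, and all 9 intervals lay within ±0.5. The median was 0.005 in raw counts with the batch term and 0.028 in corrected counts without LSD1i 3. Over the 5 libraries named alike it was −0.21, with 1 of 9 above 0. Uqcrh, the hinge protein beside cytochrome c1, was at 189, 195, 205, 177 and 183 CPM in NT and 210, 222, 206 and 230 CPM in LSD1i. The groups did not overlap, although NT 3 and LSD1i 3 were nearly equal. Its log2 fold change was 0.19 ± 0.07 (SE), with an adjusted p of 0.232 (edgeR). Uqcrh and Cox7a1 were the 2 members whose groups did not overlap, against 7.86% of all tested genes. The small subunits Uqcrq and Uqcr10 were at −0.14 ± 0.13 and −0.12 ± 0.15 (log2, SE), and the core protein Uqcrc2, the most abundant in CPM, at −0.01 ± 0.09. Cycs, the cytochrome c that carries electrons to complex IV, was at 64.0, 81.9, 76.5, 64.6 and 101 CPM in NT and 70.1, 102, 64.2 and 85.7 CPM in LSD1i. Its groups overlapped across their whole range, and its log2 fold change was 0.05 ± 0.16 (SE).

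In complex IV, 9 of 15 tested members lay above 0 and 6 below, with a median of 0.05. It held both ends of the members' range, and both belonged to tissue isoforms of under 7 CPM in each library. Cox7a1, the heart and muscle isoform of subunit 7a, was at 3.62, 3.30, 3.03, 2.54 and 3.96 CPM in NT and 5.68, 4.02, 4.92 and 5.34 CPM in LSD1i. Every LSD1i library lay above every NT library, the nearest pair being NT 5 and LSD1i 2. The log2 fold change was 0.60 ± 0.16 (SE), with a 95% interval of 0.24 to 0.95 and an adjusted p of 0.0777 (edgeR). It was 0.47 in the first batch and 0.69 in the second, 0.60 in raw counts with the batch term (adjusted p 0.157, edgeR) and 0.24 with the raw table's names (adjusted p 0.999, edgeR). DESeq2 called it (adjusted p 0.0330, where 3.34% of genes were called higher), as did edgeR without NT 5 (adjusted p 0.0488, where 2.29% were called higher). Across the settings tried, its adjusted p otherwise ran from 0.0519 upwards. The authors' deposited table gives it a log2 fold change of 0.607 and an FDR of 0.231.

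The liver isoform Cox7a2, the form most cells use, averaged 162 ± 20.8 CPM (SD, n = 5) without and 175 ± 14.3 CPM (SD, n = 4) with the inhibitor, with a log2 fold change of 0.11 ± 0.11 (SE). Cox7a2l, the related factor that joins complexes III and IV in supercomplexes, was at 215, 231, 247, 238 and 188 CPM in NT and 246, 269, 254 and 250 CPM in LSD1i. Its groups overlapped at NT 3, and the log2 fold change was 0.19 ± 0.09 (SE), with an adjusted p of 0.365 (edgeR).

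Cox6b2, the testis isoform of subunit 6b, was at 3.85, 3.30, 3.84, 3.17 and 3.65 CPM in NT and 5.96, 3.71, 4.97 and 4.25 CPM in LSD1i. LSD1i 2 lay within the NT range, and the log2 fold change was 0.40 ± 0.16 (SE), with an adjusted p of 0.251 (edgeR). Its common counterpart Cox6b1 was at 0.11 ± 0.09 (log2, SE). Cox6a2, the heart isoform of subunit 6a, was at 4.23, 6.13, 5.02, 6.39 and 2.63 CPM in NT and 2.37, 4.08, 3.75 and 3.54 CPM in LSD1i. NT 5 lay among the LSD1i libraries. The log2 fold change was −0.50 ± 0.26 (SE), with a 95% interval of −1.06 to 0.07 and an adjusted p of 0.419 (edgeR). Its liver counterpart Cox6a1 was at −0.01 ± 0.13 (log2, SE).

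The common forms of other subunits had estimates nearer 0. Cox4i1, the most abundant complex IV member in CPM, was at 0.02 ± 0.10 (log2, SE), Cox7b at −0.08 ± 0.12, Cox8a at −0.01 ± 0.12, and Ndufa4, a subunit first assigned to complex I, at 0.17 ± 0.16. The groups of each overlapped.

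**Figure D3:**
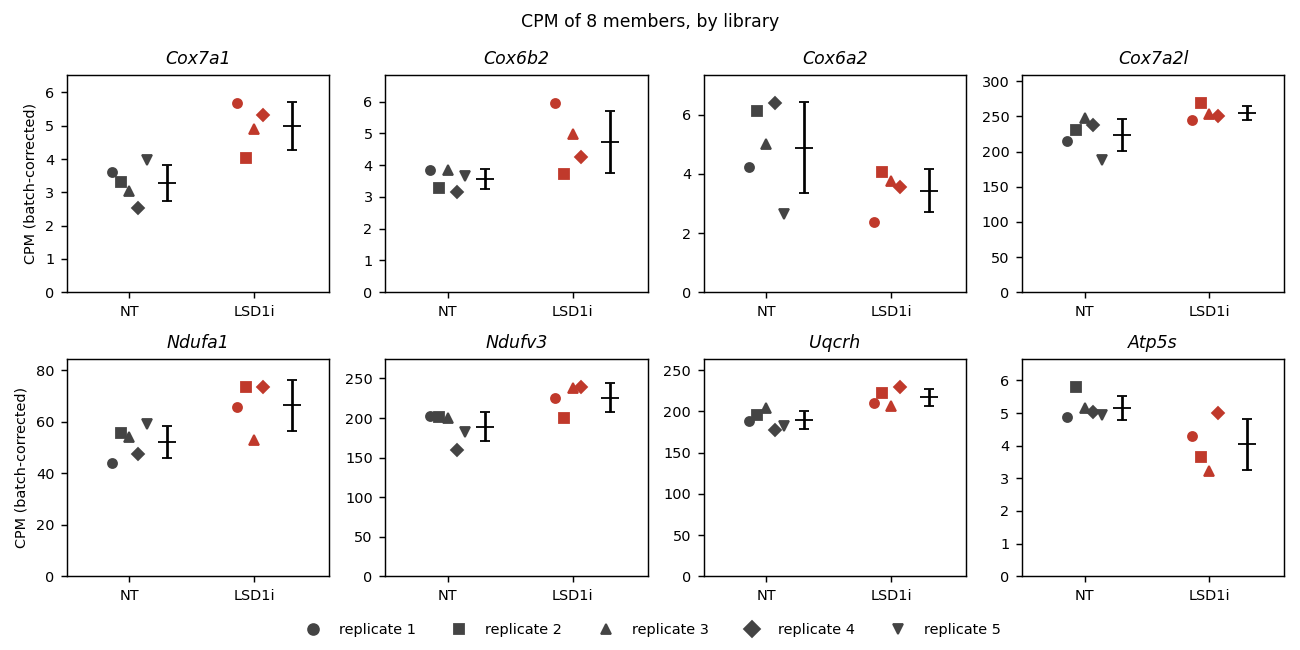
CPM (y axes, batch-corrected counts, each from 0) of 8 members in NT and LSD1i libraries (symbols give the replicate number, bars the mean and SD). The groups do not overlap for Cox7a1 and Uqcrh and overlap for the other 6.

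In complex V, 10 of 16 members lay above 0, with a median log2 fold change of 0.04. Atp5b was at 1889, 2178, 2150, 1972 and 2227 CPM in NT and 1994, 2201, 1731 and 2252 CPM in LSD1i. Its groups overlapped, and the log2 fold change was −0.03 ± 0.10 (SE). The c-ring of the rotor is encoded by Atp5g1, Atp5g2 and Atp5g3, which give the same mature protein. They were at −0.12 ± 0.14, 0.17 ± 0.13 and 0.13 ± 0.14 (log2, SE), and none of the 3 was called. Atp5o, the subunit that ties the catalytic head to the stalk, was at 0.14 ± 0.09 (log2, SE). Atp5s was at 4.88, 5.80, 5.16, 5.02 and 4.94 CPM in NT and 4.30, 3.66, 3.22 and 5.01 CPM in LSD1i. LSD1i 4 lay within the NT range and the other 3 below it. The log2 fold change was −0.34 ± 0.15 (SE), with an adjusted p of 0.303 (edgeR).

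Of the 8 assembly factors, which help to build complex I and are not part of the finished enzyme, 7 lay below 0 and the median was −0.17. Ndufaf3 was at 20.4, 24.5, 21.1, 22.8 and 22.1 CPM in NT and 18.8, 19.6, 16.4 and 21.6 CPM in LSD1i. LSD1i 4 lay within the NT range and the other 3 below it, and the log2 fold change was −0.21 ± 0.10 (SE), with an adjusted p of 0.364 (edgeR). Ndufaf6 was at −0.29 ± 0.15 (log2, SE), Ndufaf1 at −0.18 ± 0.10, and Ndufaf7, the most abundant in CPM, at −0.08 ± 0.08.

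Other genes of the pathway gave the same count with edgeR, the tool run on these lists. Of 15 tested genes listed as regulators of mitochondrial gene expression, 0 were called and 2 had an unadjusted p under 0.05, against 14.6% of all tested genes. The full list also held Twistnb, a subunit of RNA polymerase I. Of the 15, 3 lay above 0, against 45.6% of all tested genes, and the median log2 fold change was −0.10 against −0.02. The smallest p-values were those of Pprc1, a coactivator of NRF1, at −0.54 ± 0.18 (log2, SE, adjusted p 0.180, edgeR), and of Hif1a, the hypoxia factor, at 0.27 ± 0.10 (adjusted p 0.221, edgeR). Of 42 further assembly factors of the complexes, 0 were called and 4 had an unadjusted p under 0.05, against 14.6% of all tested genes. Of the 42, 13 lay above 0, against 45.6% of all tested genes, and the median was −0.04. Ecsit, a complex I assembly factor, was at 0.23 ± 0.07 (adjusted p 0.110, edgeR), with groups that did not overlap, and Cox10, which makes heme for complex IV, at −0.24 ± 0.10 (adjusted p 0.295, edgeR).

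Of 20 genes for electron entry, ubiquinone synthesis and inner-membrane carrier proteins, 0 were called and 2 had an unadjusted p under 0.05, against 14.6% of all tested genes. Of the 20, 4 lay above 0, against 45.6% of all tested genes, and the median was −0.07. Gpd2, the mitochondrial glycerol-3-phosphate dehydrogenase, which passes electrons from a glycolytic product to ubiquinone, was at 116, 92.1, 107, 118 and 94.6 CPM in NT and 76.6, 88.9, 82.4 and 74.2 CPM in LSD1i. Every LSD1i library lay below every NT library, and the log2 fold change was −0.39 ± 0.10 (SE), with an adjusted p of 0.0587 (edgeR). Coq3, of ubiquinone synthesis, was at −0.28 ± 0.11 (adjusted p 0.225, edgeR). Of 18 genes of the citric acid cycle and of pyruvate entry into it, 0 were called and 0 had an unadjusted p under 0.05. Of the 18, 4 lay above 0, against 45.6% of all tested genes, and the median was −0.08. The smallest p-values were those of Idh2 and Idh3a, isocitrate dehydrogenases, each at −0.19.

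Over the 5 libraries named alike, which do not depend on the naming, edgeR on raw counts called none of the members and pathway genes named above. The log2 fold changes there were 0.25 ± 0.15 (SE) for Ndufa1, 0.39 ± 0.11 for Ndufv3, 0.26 ± 0.12 for Ndufa13, 0.22 ± 0.10 for Uqcrh and 0.69 ± 0.21 for Cox7a1. They were 0.16 ± 0.15 (log2, SE) for Cox7a2l, 0.40 ± 0.19 for Cox6b2, −0.36 ± 0.35 for Cox6a2, −0.28 ± 0.25 for Atp5s, −0.20 ± 0.11 for Ndufaf3 and −0.49 ± 0.16 for Ndufaf6. Among the other pathway genes, Gpd2 was at −0.46 ± 0.13 (log2, SE), Ecsit at 0.25 ± 0.10, Pprc1 at −0.41 ± 0.15 and Hif1a at 0.16 ± 0.12. Each of these 15 genes kept the direction it had over all 9 libraries, and their adjusted p-values ran from 0.208 to 0.700 (edgeR). The 5 libraries are part of the 9, so the directions are not independent. Other named members changed direction there: Cox4i1 (−0.03), Cycs (−0.10), Ndufa4 (−0.07), Sdha (0.06), Sdhb (−0.03) and Sdhc (−0.03).

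The effect was then compared between the batches, on raw counts. In the first batch 80 of 88 members lay above 0, with a median log2 fold change of 0.18, and in the second 31 did, with a median of −0.05. All 4 libraries of the first batch have the opposite group name in the raw table. Under that naming the first-batch signs would be reversed, so its direction and the comparison of batches depend on the naming. Neither batch alone called a member, where 0.0676% and 0.969% of genes were called. The medians of all genes were −0.01 and −0.00. The difference between batches, tested as an interaction (edgeR), called 0 members where 0% of 11916 genes were called. At an unadjusted p under 0.05 it held 581 genes and 1 member, the assembly factor Ndufaf6 (0.11 in the first batch and −0.49 in the second, adjusted p 0.764). Leaving out NT 1, the library rich in Rn45s, brought the first-batch median to 0.02, with 53 of 88 above 0. The first batch then rests on 1 NT library, and the interaction again called 0 members and 0 genes.

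**Figure D4:**
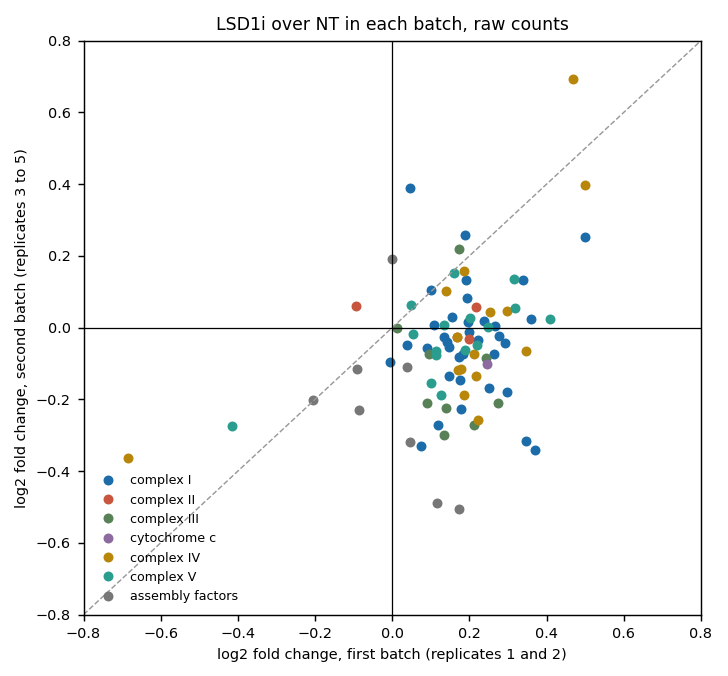
Log2 fold change, LSD1i over NT, of each tested member in the first batch (x axis) and in the second (y axis), from raw counts with colours by complex. Most points lie to the right of 0, and 31 of 88 lie above 0 on the y axis. The names are those of the batch-corrected table, and the raw table's names would reverse the signs on the x axis.

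More members were called between batches than between treatments. The batches were inferred from these data, so p-values between them, here and below, are not an independent test that the batches differ. In raw counts, 44 of 88 were called higher in the second batch and 0 lower (edgeR, group as a term), where 18.4% of 11916 genes were called higher and 20.4% lower (38.7% in all). The median log2 fold change, second over first batch, was 0.34 for the members and −0.01 for all genes. The same comparison with the raw table's group names called 44. Without NT 1, 40 were called higher and 6 lower (Atp5a1, Atp5d, Cyc1, Ndufs7, Ndufv1 and Uqcrc1), where 22.2% and 23.4% of genes were called. The batches did not overlap for 43 members, against 30.1% of all genes.

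By complex, the members called higher in the second batch were 20 of 35 in complex I, 5 of 9 in complex III, 10 of 15 in complex IV and 9 of 16 in complex V, but 0 of 4 in complex II and 0 of 8 assembly factors. The difference between complexes was not tested. Atp5l, subunit g of the ATP synthase membrane part, showed the largest log2 fold change. In raw CPM it was at 3.82, 8.90, 7.33 and 5.82 in NT 1, NT 2, LSD1i 1 and LSD1i 2, and at 17.1, 15.4, 17.0, 17.0 and 15.3 in NT 3 to 5, LSD1i 3 and LSD1i 4. The batches did not overlap, and its log2 fold change was 1.35 ± 0.21 (SE), with an adjusted p of 0.000884 (edgeR). Atp5e, subunit epsilon of the catalytic head, was at 80.3, 116, 103 and 123 CPM in the first batch and 231, 240, 223, 216 and 224 CPM in the second, again without overlap. Its log2 fold change was 1.11 ± 0.13 (SE), with an adjusted p of 0.000156 (edgeR). After correction, the log2 fold changes of Atp5l and Atp5e, LSD1i over NT, were both −0.00.

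Transcript length moved with this difference. The median length was 772.5 bases for the members and 2672.5 for all tested genes. Members of up to 500 bases had a median log2 fold change, second over first batch, of 0.74 (12 members), and other genes of that length 0.55 (69 genes). From 500 to 700 bases the medians were 0.53 and 0.42, from 700 to 1000 bases 0.32 and 0.29, and from 1000 to 1500 bases 0.18 and 0.10. From 1500 to 2500 bases they were 0.09 and −0.03, and above 2500 bases 0.04 (6 members) and −0.11. Spearman's rho of length and batch difference was −0.58 across 86 members and −0.21 across 10906 genes, which share the same 9 libraries. Genes are not independent replicates, and the part of length in the batch difference was not tested.

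**Figure D5:**
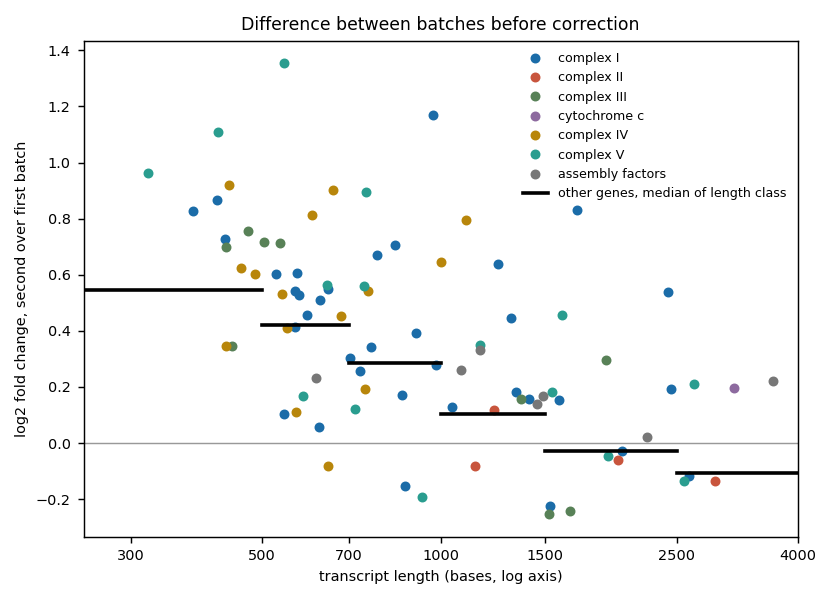
Log2 fold change between batches in raw counts (y axis, second over first) against transcript length in bases (x axis, log scale) for 86 members coloured by complex. Black lines are medians of other genes in 6 length classes, and members and other genes both fall from left to right.

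Apart from the assembly factors, the members also moved largely together from library to library after correction. Each library was compared with each gene's mean over all 9 libraries of both groups. The median deviation of the 88 members was −0.19, 0.07, 0.04, −0.15 and 0.17 (log2) in NT 1 to 5. It was −0.01, 0.15, −0.17 and 0.08 in LSD1i 1 to 4. In NT 1, 4 of 88 members were above that mean, and in LSD1i 2, 80 were. The 840 other genes of up to 1000 bases deviated likewise, by −0.16, 0.07, 0.05, −0.08 and 0.11 in NT and by 0.01, 0.12, −0.11 and 0.04 in LSD1i. The medians of all tested genes lay within 0.02 of 0 in each library. Complexes I, II, III, IV and V each had their lowest median in NT from NT 1 or NT 4 and their highest in LSD1i from LSD1i 2. The 8 assembly factors had medians of 0.10 in NT 4 and −0.06 in LSD1i 4, opposite in sign to those of complexes I to V. The part of length in these deviations was not tested.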

How the data were processed

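RNA was sequenced from 5 NT and 4 LSD1i libraries, built with a SMARTer mRNA kit, per the labels' protocols. Tools in the submitters' processing notes are STAR, featureCounts and edgeR, with build mm9. Not given in the sources used here: tool versions, strand setting and batch-correction method. The authors deposited raw read counts, estimated counts after their batch correction (whole numbers for 24391 genes, so rounding changed nothing), and a comparison table holding log2 fold changes, FDR values (adjusted p-values) and a test score F. Members and lists were chosen with earlier results of these data known, and so was the use of the batch-corrected table.

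The main test was edgeR 4.0.16 (R 4.3.3), quasi-likelihood with TMM scaling on the batch-corrected counts, low-count filter by group (minimum count 10, minimum total 15), two-sided, with Benjamini-Hochberg adjustment over all 11981 tested genes at 0.05. The earlier batch correction costs this test no residual degrees of freedom, which can make its p-values too small. The standard error is the size of the log2 fold change over the square root of F. CPM are counts over TMM-scaled library totals. Raw libraries were matched to corrected ones by genes at 0 in only 1 table (0 for partners, at least 1336 otherwise). Lengths are medians of protein-coding transcripts of GENCODE (GRCm38, not the counts' mm9), chosen after the batch difference was seen, as were the batch comparison without NT 1 and the promoters shown. Named members were those with the 3 smallest p-values of each complex, the most abundant in CPM, the tissue isoform sets, those whose interval excluded 0 in both the corrected and the raw fit, and the 2 smallest p-values of each pathway list; Atp5l, Atp5e and the members of single counts were named after their values were seen. Alternatives were the raw tables, batch and replicate terms, other scalings, no filter, DESeq2 1.42.0, limma 3.58.1 voom and leaving out each library. Counting is not stated to use strand, so reads of genes that overlap, in sense or antisense, cannot be separated, and reads shared with near-identical pseudogenes make single members uncertain. Depth was 15003752 to 27215488 counts per library.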

Additional observations from a re-analysis of the deposited data

How the results depend on the processing

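The count of members called was 0 in both directions under every setting except DESeq2 and edgeR without NT 5, which each called 1 (Cox7a1, higher), so leaving out 1 library gave 0 to 1. Over all genes, 258 were called higher and 139 lower. Leaving out 1 library gave 163 to 303 and 56 to 159, DESeq2 400 and 267, raw counts with the batch term 166 and 54, the first batch alone 8 and 0, the second alone 97 and 20, and the raw table's names 0 and 0. Signs below are those of the members named in the report by rule. Over all 88 tested members, the sign differed from the one reported for 43 with the raw table's names, 34 in the first batch alone, 19 in the second alone, 18 with the batch term, 13 with the replicate block on corrected and 23 on raw counts, 9 without a low-count filter and 6 to 21 with 1 library left out. The deviations of same-numbered NT and LSD1i libraries had correlations of −0.11, 0.32, 0.10 and −0.32 for replicates 1, 2, 3 and 4. Whether the numbers pair the samples was not tested. With the replicate block the corrected counts called 0 members, 219 genes higher and 107 lower, and of the named members Atp5g1 (0.0025), Cox6a1 (0.075) and Cox8a (0.022) changed sign. In raw counts with the replicate block Atp5b (0.030), Atp5g1 (0.0089), Cox6a1 (0.095), Cox7b (0.039) and Cox8a (0.081) did. With the raw table's names, which put 4 libraries in the other group, the median was −0.14 for all members, −0.15 for complex I, −0.092 for complex II, −0.19 for complex III, −0.19 for cytochrome c, −0.14 for complex IV, −0.15 for complex V and −0.12 for the assembly factors. The log2 ratio of summed CPM was −0.12 for all members, −0.11 for complex I, −0.032 for complex II, −0.15 for complex III, −0.16 for complex IV and −0.10 for complex V. Of the named members, those that changed sign were Atp5g2 (−0.083), Atp5g3 (−0.19), Atp5o (−0.018), Cox4i1 (−0.14), Cox6b1 (−0.053), Cox6b2 (−0.0055), Cox7a2 (−0.14), Cox7a2l (−0.041), Cycs (−0.19), Ndufa1 (−0.075), Ndufa4 (−0.23), Sdha (0.075), Sdhb (−0.11), Sdhc (−0.098) and Sdhd (−0.086). In the first batch alone the median was 0.18 for all members, 0.19 for complex I, 0.18 for complex II, 0.14 for complex III, 0.25 for cytochrome c, 0.21 for complex IV, 0.15 for complex V and 0.019 for the assembly factors, and of the named members Atp5b (0.11), Atp5g1 (0.13), Cox6a1 (0.17), Cox7b (0.18), Cox8a (0.21), Ndufaf6 (0.11), Uqcr10 (0.21), Uqcrc2 (0.012) and Uqcrq (0.13) changed sign. In the second batch alone the named members Cox4i1 (−0.026), Cycs (−0.10), Ndufa4 (−0.065), Sdha (0.060), Sdhb (−0.032) and Sdhc (−0.027) did, with the batch term Atp5b (0.017), Cox6a1 (0.015), Cox8a (0.058) and Uqcrc2 (0.0061), and without a low-count filter Cox6a1 (0.0027), Cox8a (0.0035) and Sdha (0.0038). Leaving out 1 library moved the named members Atp5b from −0.076 to 0.052, Atp5g1 from −0.18 to 0.0026, Cox4i1 from −0.026 to 0.11, Cox6a1 from −0.068 to 0.086, Cox8a from −0.054 to 0.082, Cycs from −0.074 to 0.17, Sdha from −0.020 to 0.020, Sdhc from −0.014 to 0.10, Uqcr10 from −0.20 to 0.011 and Uqcrc2 from −0.060 to 0.033, with a change of sign in each. The members called higher in the second batch numbered 37 to 48 with 1 library left out and those called lower 0 to 6, the 6 without NT 1. The cause of these changes was not tested.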
